A study of Mus musculus with 30 samples.

Results

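Described here are 10 genes used as markers of neutrophils, in the mouse heart after myocardial infarction (MI): S100a8, S100a9, Csf3r, Retnlg, Clec4d, Clec4e, Fpr1, Fpr2, Trem1 and Hdc. They were chosen by name, with earlier results of these data known, and all 10 were found among the 43629 genes of the count table in each of the 30 libraries. The hearts came from wild type C57BL/6J mice. In the MI groups the mice were anaesthetised with isoflurane, the chest was opened, the pericardium was removed and a coronary artery was tied. Sham mice had the same operation without the tie. Hearts were taken at day 2, day 4 or day 7, with 5 MI and 5 sham libraries at each day. The labels give neither the sex and age of the mice nor the part of the heart that was used, and they number the replicates without saying that each came from its own animal. Each library is called a heart below. A p-value here is set by how far the libraries of a group scatter, which may be technical.

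Neutrophils are short-lived white blood cells that leave the blood and enter an infarct early, ahead of most macrophages. S100a8 and S100a9 encode the subunits of calprotectin, a calcium- and zinc-binding protein that fills much of the neutrophil cytosol and is released as an alarm signal read by Tlr4. The other genes encode mainly surface receptors: Csf3r for the growth factor G-CSF, Clec4d and Clec4e for microbial glycolipids and material of dead cells, Fpr1 and Fpr2 for formylated peptides of bacteria and mitochondria, and Trem1, which amplifies such signals. Retnlg encodes a secreted protein of the resistin family, and Hdc encodes histidine decarboxylase, the enzyme that makes histamine and that mast cells and basophils also contain. Monocytes and macrophages can express several of these genes, Clec4d, Clec4e, Fpr2 and Trem1 among them.

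On the mouse genome GRCm38, 6 of the 10 genes lie in 3 neighbouring pairs with 0 annotated genes between the members of a pair. S100a8 (ENSMUSG00000056054) lies on the plus strand of chromosome 3 from 90668978 to 90670035, and S100a9 (ENSMUSG00000056071) on the minus strand from 90692632 to 90695721, 22.6 kb away. Clec4d (ENSMUSG00000030144) lies on the plus strand of chromosome 6 from 123262111 to 123275265, and Clec4e (ENSMUSG00000030142) on the minus strand from 123281789 to 123289870, 6.52 kb away. Fpr1 (ENSMUSG00000045551) lies on the minus strand of chromosome 17 from 17876471 to 17883940, and Fpr2 (ENSMUSG00000052270) on the plus strand from 17887824 to 17893952, 3.88 kb away. The remaining genes are unlinked or far from each other: Csf3r (ENSMUSG00000028859) on chromosome 4 from 126024550 to 126044440, Retnlg (ENSMUSG00000022651) on chromosome 16 from 48872621 to 48874496, Trem1 (ENSMUSG00000042265) on chromosome 17 from 48232768 to 48246924, and Hdc (ENSMUSG00000027360) on chromosome 2 from 126593667 to 126619299.

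The promoters of the calprotectin pair and Csf3r are shown because these 3 genes followed the other members most closely between MI hearts (below), and that of Clec4e as one that followed them less. Letters of motifs bound by myeloid factors, and of the TATA box, are in capitals. Each stretch is the 250 bases before the RefSeq start site on GRCm38.p6, 5′ to 3′ on the gene's own strand. S100a8 is at chr3:90668821-90669070 (plus), S100a9 at chr3:90695722-90695971 (minus), Csf3r at chr4:126024409-126024658 (plus) and Clec4e at chr6:123289872-123290121 (minus).
S100a8: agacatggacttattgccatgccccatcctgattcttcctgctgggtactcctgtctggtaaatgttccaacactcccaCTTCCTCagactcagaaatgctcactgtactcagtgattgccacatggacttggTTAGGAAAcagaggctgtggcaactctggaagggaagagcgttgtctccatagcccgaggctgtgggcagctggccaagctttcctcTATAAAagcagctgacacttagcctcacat
S100a9: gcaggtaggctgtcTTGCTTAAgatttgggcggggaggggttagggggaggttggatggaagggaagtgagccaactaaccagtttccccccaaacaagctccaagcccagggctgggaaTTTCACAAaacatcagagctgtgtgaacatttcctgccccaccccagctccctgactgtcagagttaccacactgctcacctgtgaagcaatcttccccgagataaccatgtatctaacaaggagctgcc
Csf3r: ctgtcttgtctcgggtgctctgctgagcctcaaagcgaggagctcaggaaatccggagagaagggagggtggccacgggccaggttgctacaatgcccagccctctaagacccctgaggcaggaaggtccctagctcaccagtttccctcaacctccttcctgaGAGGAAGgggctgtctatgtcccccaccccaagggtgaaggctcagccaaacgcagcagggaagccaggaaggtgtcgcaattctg
Clec4e: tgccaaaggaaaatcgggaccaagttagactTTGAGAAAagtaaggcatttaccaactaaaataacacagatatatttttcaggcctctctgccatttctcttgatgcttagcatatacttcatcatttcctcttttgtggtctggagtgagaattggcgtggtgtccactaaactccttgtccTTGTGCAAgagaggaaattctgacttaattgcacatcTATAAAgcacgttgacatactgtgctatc

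Capitals mark a C/EBP motif (TTNNGNAA), a PU.1 motif (GAGGAAG) or a TATA box (TATAAA) on either strand, and no 2 of the marked matches overlap. C/EBP proteins and PU.1 are transcription factors of the myeloid lineage, and a TATA box positions the start of transcription. RefSeq entries matched all 10 genes. Over windows of 300 bases, 250 before the start and 50 after it, the C/EBP letters were found in 8 of the 10 promoters and in 40.7% of 32544 mouse promoters. The PU.1 letters were found in 3 of the 10 (S100a8, Csf3r and Clec4d) and in 13.4% of all promoters, and the TATA letters in 5 of the 10 and in 13.6%. In S100a8 the TATA letters began at -30 and in Clec4e at -29 from the start site, whereas in S100a9 they began at the first transcribed base of the RefSeq entry, just past the printed stretch. A match is only a match of letters. The RefSeq start is also the GENCODE start of the gene in 2 of the 10, S100a9 and Fpr2, and the starts lie 93 bases apart for S100a8, 109 for Csf3r, 29 for Trem1 and 621 for Hdc.

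The libraries held 7841930 to 14070017 counts assigned to genes, with 18668 to 20905 genes detected, and 3 counts corresponded to 0.213 to 0.383 CPM (a gene's count scaled to a common library total). Values below are CPM unless stated, uncorrected for gene length. Lung transcripts were high in 6 libraries, called the lung-transcript libraries below: the summed CPM of 6 lung markers was at least 180 in sham hearts 2 and 3 of day 4, in sham hearts 1, 2 and 3 of day 7 and in MI heart 2 of day 7, where it reached 2163. It was 33.6, 13.5 and 25.6 CPM in MI hearts 3, 4 and 5 of day 7 and 0.228 to 2.27 CPM in the remaining libraries. Skeletal muscle and fat markers stood high in MI heart 4 of day 7, at 833 CPM against 14.8 to 27.5 in the other MI hearts of that day. The 6 cardiomyocyte markers were abundant in all libraries and were lower after MI, 4 of 6 at day 2 and 6 of 6 at days 4 and 7, where 22.2%, 25.2% and 26.6% of all genes tested were called lower at days 2, 4 and 7. The library identifiers in the labels begin with one number for day 2 and with another for days 4 and 7, so the levels of day 2 and of the later days cannot be told apart from that difference. The comparisons of MI with sham within a day do not cross it.

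At day 2 all 10 genes were tested and all 10 were higher in MI than in sham hearts, with a median log2 fold change of 3.29 beside -0.0051 over all genes tested. Of 14524 genes tested at that day, 24.1% were called higher, at an adjusted p under 0.05 in edgeR's quasi-likelihood test with Benjamini-Hochberg adjustment over all genes, the call used throughout. At day 4, 8 of the 10 genes passed the filter on low counts and 7 of them were called higher, with 27.5% of 14410 genes called higher in all. At day 7, 7 of the 10 passed and all 7 were called higher, with 28.4% of 14492 genes called higher. A gene with few counts in sham hearts passes the filter through its MI hearts, so the counts at days 2, 4 and 7 are descriptions. At day 2, for instance, Fpr1 had only 8 to 11 counts in the sham hearts. In whole tissue, more cells of a type and more RNA per cell cannot be told apart.

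**Figure D1:**
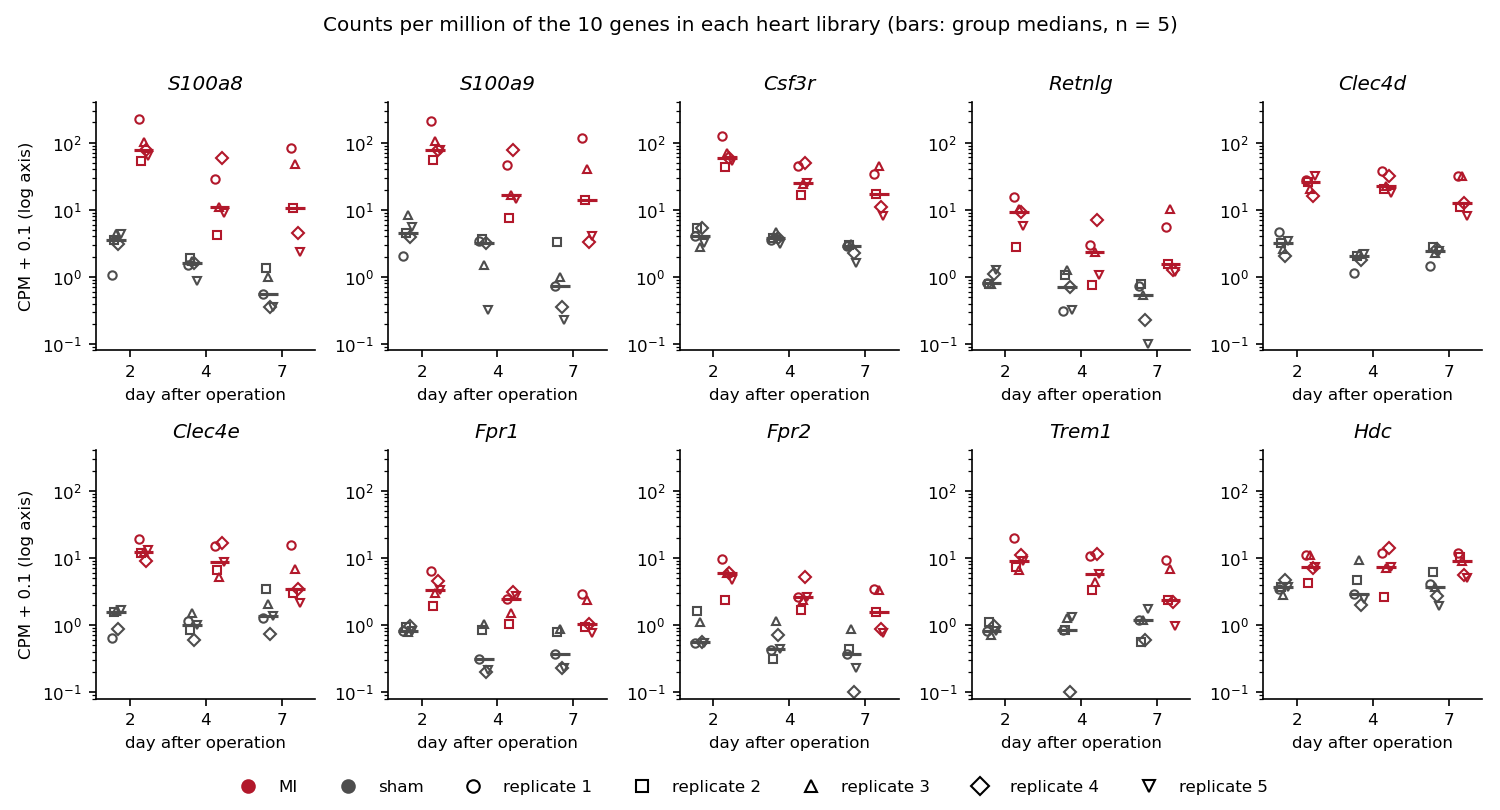
CPM of each of the 10 genes in each library (points, log axis after adding 0.1 CPM), by day and operation, with a bar at the group's median. MI hearts stand above sham hearts for S100a8, Csf3r and Clec4d at all 3 days, while Hdc overlaps at each day and S100a9 overlaps at day 7.

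At day 2 the calprotectin genes had the highest CPM of the 10 after MI. S100a8 was at 0.977, 3.42, 4.18, 2.94 and 4.23 CPM in sham hearts 1 to 5 of day 2 and at 226, 53.6, 104, 76.3 and 62.5 CPM in the MI hearts. Every MI heart lay far above every sham heart, and MI heart 1 stood above its group. The log2 fold change was 4.94 ± 0.49 (SE; approximate 95% interval 3.97 to 5.90; edgeR adjusted p 1.92e-05). At day 4 the sham hearts held 1.38, 1.83, 1.65, 1.51 and 0.777 CPM and the MI hearts 28.3, 4.04, 10.8, 59.7 and 8.84 CPM. The groups did not overlap, but MI hearts 1 and 4 were well above hearts 2, 3 and 5. The log2 fold change was 3.77 ± 0.85 (SE; edgeR adjusted p 0.00494), and without MI heart 4 the fold fell from 13.7 to 7.92. At day 7 the sham hearts held 0.458, 1.23, 0.88, 0.251 and 0.255 CPM and the MI hearts 83.1, 10.6, 48.0, 4.46 and 2.26 CPM. MI hearts 1 and 3 carried most of the signal and MI heart 5 came close to the highest sham heart. The 41.2-fold difference (log2 5.36 ± 1.29, SE; edgeR adjusted p 0.00709) became 22.7-fold without MI heart 1 and 14.8-fold with limma voom and sample weights. Without the lung-transcript libraries, which leaves 2 sham and 4 MI hearts, it was 110-fold but no longer called (edgeR adjusted p 0.142).

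S100a9 followed S100a8. Its CPM was 1.95, 4.34, 8.11, 3.86 and 5.38 in the sham hearts of day 2 and 210, 55.7, 106, 77.6 and 76.9 in the MI hearts, and the groups were far apart. The log2 fold change was 4.37 ± 0.44 (SE; edgeR adjusted p 1.98e-05). Day 4 sham hearts held 3.28, 3.55, 1.41, 3.12 and 0.222 CPM and MI hearts 45.9, 7.52, 16.6, 76.2 and 14.3 CPM. The order of the MI hearts was that of S100a8, with hearts 4 and 1 highest and heart 2 lowest, and without heart 4 the fold fell from 12.0 to 7.84. Day 7 sham hearts held 0.641, 3.25, 0.88, 0.251 and 0.128 CPM and MI hearts 118, 13.7, 39.8, 3.19 and 3.99 CPM. Here the groups overlapped, since MI heart 4 lay below sham heart 2, one of the lung-transcript libraries. The 29.8-fold difference (edgeR adjusted p 0.0134) was 12.7-fold without MI heart 1 and 61.2-fold without sham heart 2. It was lost with limma voom (13.3-fold, adjusted p 0.0674) and without the lung-transcript libraries (173-fold, edgeR adjusted p 0.151).

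The count of S100a8 divided by that of S100a9 stayed between 0.537 and 1.39 over the 15 MI hearts, while S100a8 itself ranged over 99.6-fold and S100a9 over 65.7-fold. In sham hearts the ratio ranged from 0.379 to 3.50, where the counts behind it were as low as 1. Summed over the 5 hearts of a group, the ratio after MI was 0.988 at day 2, 0.695 at day 4 and 0.863 at day 7. The 2 genes thus kept to a narrow ratio across MI hearts that differed widely in level.

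**Figure D2:**
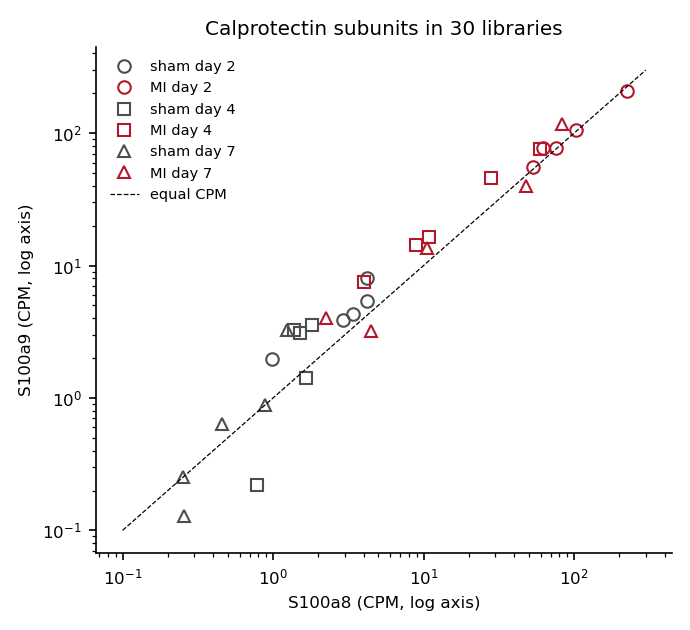
S100a9 (vertical axis) against S100a8 (horizontal axis) in each library (CPM, log axes), with the day and operation shown by marker and colour and the line of equal CPM. The MI hearts run along the line, mostly just above it, from a few CPM to above 200, and sham hearts lie at the low end.

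Csf3r, the receptor through which G-CSF drives the production of neutrophils, was separated at all 3 days. In sham hearts it was at 4.0, 5.33, 2.65, 5.18 and 3.09 CPM at day 2, at 3.50, 3.65, 4.59, 3.72 and 3.0 at day 4 and at 2.75, 2.92, 2.97, 2.14 and 1.53 at day 7. After MI it was at 126, 43.3, 70.9, 58.4 and 53.9 CPM at day 2, at 44.5, 16.3, 23.9, 49.5 and 24.6 at day 4 and at 33.5, 17.1, 44.6, 10.8 and 7.98 at day 7. No MI heart overlapped a sham heart of its day, and the high hearts were those of the calprotectin genes. The log2 fold changes were 4.01 ± 0.32, 2.92 ± 0.31 and 3.01 ± 0.49 (SE) at days 2, 4 and 7, with edgeR adjusted p-values of 2.53e-06, 1.24e-05 and 0.0003.

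The C-type lectin receptors Clec4d and Clec4e had lower coefficients of variation after MI than the calprotectin genes at each day (below), a difference that was not tested. Clec4d was at 4.53, 3.12, 2.48, 1.93 and 3.35 CPM in sham hearts of day 2 and at 27.7, 25.8, 19.9, 16.1 and 31.2 CPM in MI hearts. At day 4 the values were 1.06, 1.93, 2.12, 1.71 and 2.11 in sham and 38.1, 20.2, 22.3, 32.1 and 17.4 in MI hearts, and at day 7 they were 1.37, 2.69, 2.2, 2.51 and 2.30 in sham and 31.9, 10.9, 32.1, 12.5 and 8.09 in MI hearts. The groups did not overlap at any day, and at days 2 and 4 the MI hearts differed from each other by less than they did for S100a8. The folds were 7.36 at day 2, 12.8 at day 4 and 7.63 at day 7, with edgeR adjusted p-values of 2.66e-07, 1.31e-07 and 0.000109. Clec4d was the member with the lowest adjusted p at each day.

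Clec4e, also known as Mincle, was at 0.533 to 1.59 CPM in sham hearts of day 2 and at 18.8, 11.6, 12.3, 8.88 and 12.9 CPM in MI hearts. At day 4 sham hearts held 0.503 to 1.41 CPM and MI hearts 14.9, 6.58, 5.08, 16.5 and 8.67 CPM. Both days were without overlap, with folds of 10.1 and 9.89 (edgeR adjusted p 2.91e-07 and 1.01e-05). At day 7 the sham hearts held 1.19, 3.36, 1.98, 0.628 and 1.28 CPM and the MI hearts 15.5, 2.90, 6.68, 3.28 and 2.05 CPM. MI hearts 2, 4 and 5 lay below sham heart 2, and the 3.13-fold difference (edgeR adjusted p 0.0275) was lost when any of 5 hearts was left out: MI heart 1 (1.94-fold, adjusted p 0.0785), MI heart 3, or sham heart 1, 4 or 5 (adjusted p 0.0635 to 0.0665). It was also lost with no filter on low counts (adjusted p 0.0999) and without the lung-transcript libraries (6.01-fold, edgeR adjusted p 0.056). The summed Clec4d count divided by that of Clec4e after MI was 1.89 at day 2, 2.51 at day 4 and 3.30 at day 7, and it was 2.59, 1.95 and 1.28 in sham hearts.

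The formyl peptide receptors were present at a few CPM. They belong to a cluster of related genes, and the counting may have split reads that related copies share. Fpr1 was at 6.17, 1.79, 2.86, 4.41 and 3.17 CPM in MI hearts of day 2 against 0.683 to 0.85 CPM in sham hearts (4.47-fold, edgeR adjusted p 7.54e-05). Fpr2 was at 9.36, 2.26, 5.83, 5.76 and 4.56 CPM against 0.441 to 1.52 CPM (6.46-fold, edgeR adjusted p 0.000115). Neither overlapped with sham at day 2. At day 4 Fpr2 was at 2.55, 1.60, 2.26, 5.10 and 2.51 CPM after MI against 0.215 to 1.06 CPM, 4.87-fold higher (edgeR adjusted p 0.000324). Fpr1 did not pass the filter at days 4 and 7, nor did Fpr2 at day 7. Their MI hearts held 0.94 to 3.04 CPM of Fpr1 at day 4, 0.647 to 2.84 CPM of Fpr1 at day 7 and 0.647 to 3.30 CPM of Fpr2 at day 7, and in each case the lowest MI heart lay below the highest sham heart (0.942, 0.77 and 0.77 CPM). Fitted with all 30 libraries together, where both genes pass, the log2 fold changes were 2.10 for Fpr1 at day 4, 1.69 for Fpr1 at day 7 and 2.37 for Fpr2 at day 7 (edgeR adjusted p 0.000995, 0.00796 and 0.00154).

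Trem1 was at 19.4, 7.09, 6.58, 11.0 and 9.03 CPM in MI hearts of day 2, at 10.4, 3.20, 4.33, 11.4 and 5.64 CPM at day 4 and at 9.21, 2.28, 6.77, 2.10 and 0.863 CPM at day 7. Sham hearts held 0.598 to 0.989, 0 to 1.22 and 0.449 to 1.66 CPM, so that the groups overlapped only at day 7, through MI heart 5. The single sham heart with no count, in a library where 3 counts would be 0.302 CPM, was sham heart 4 of day 4. The folds were 12.6, 7.97 and 3.83 (edgeR adjusted p 1.38e-06, 0.000377 and 0.0158). At day 4 limma voom gave 13.5-fold. The call at day 7 was lost with no filter (adjusted p 0.0546) and without the lung-transcript libraries (edgeR adjusted p 0.164), and limma voom gave 2.27-fold.

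Retnlg was at 15.4, 2.73, 10.2, 9.24 and 5.68 CPM in MI hearts of day 2 against 0.683 to 1.15 CPM in sham hearts, 9.40-fold higher (edgeR adjusted p 6.51e-05). It was not tested at days 4 and 7. The MI hearts held 2.86, 0.658, 2.26, 6.86 and 0.954 CPM at day 4, overlapping with sham hearts at 0.212 to 1.18 CPM, and 5.34, 1.45, 10.1, 1.18 and 1.08 CPM at day 7, all above the sham hearts at 0 to 0.673 CPM. In the fit of all 30 libraries the log2 fold changes were 1.89 at day 4 and 3.08 at day 7 (edgeR adjusted p 0.0342 and 0.00138). With no filter in the fit of a single day they were 1.91 and 3.06 (adjusted p 0.081 and 0.0294), so the day 4 call depends on the fit.

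Hdc moved least. It was at 3.38, 3.58, 2.73, 4.56 and 3.53 CPM in sham hearts of day 2 and at 11.1, 4.13, 11.0, 7.04 and 7.17 CPM in MI hearts, 2.10-fold higher (log2 1.07 ± 0.24, SE; edgeR adjusted p 0.00244) with MI heart 2 inside the sham range. At day 4 the sham hearts held 2.75, 4.51, 9.30, 1.91 and 2.33 CPM and the MI hearts 11.5, 2.54, 6.97, 13.8 and 7.20 CPM. Sham heart 3 was the high one and MI heart 2 the low one. The log2 difference of 0.86 (approximate 95% interval -0.12 to 1.83; edgeR adjusted p 0.174) did not pass. It passed without sham heart 3 (2.53-fold, adjusted p 0.0244), without MI heart 2 (2.13-fold, adjusted p 0.044) and without the 2 lung-transcript libraries of that day (3.12-fold, edgeR adjusted p 0.0176). Mast cell and basophil markers summed to 33.7 CPM in sham heart 3 of day 4, the highest of the sham hearts, and their part in its Hdc level was not tested. At day 7 Hdc was at 3.94, 6.05, 3.52, 2.64 and 1.79 CPM in sham and 11.7, 10.1, 8.91, 5.46 and 4.96 CPM in MI hearts, 1.99-fold higher (edgeR adjusted p 0.0139) with some overlap.

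**Figure D3:**
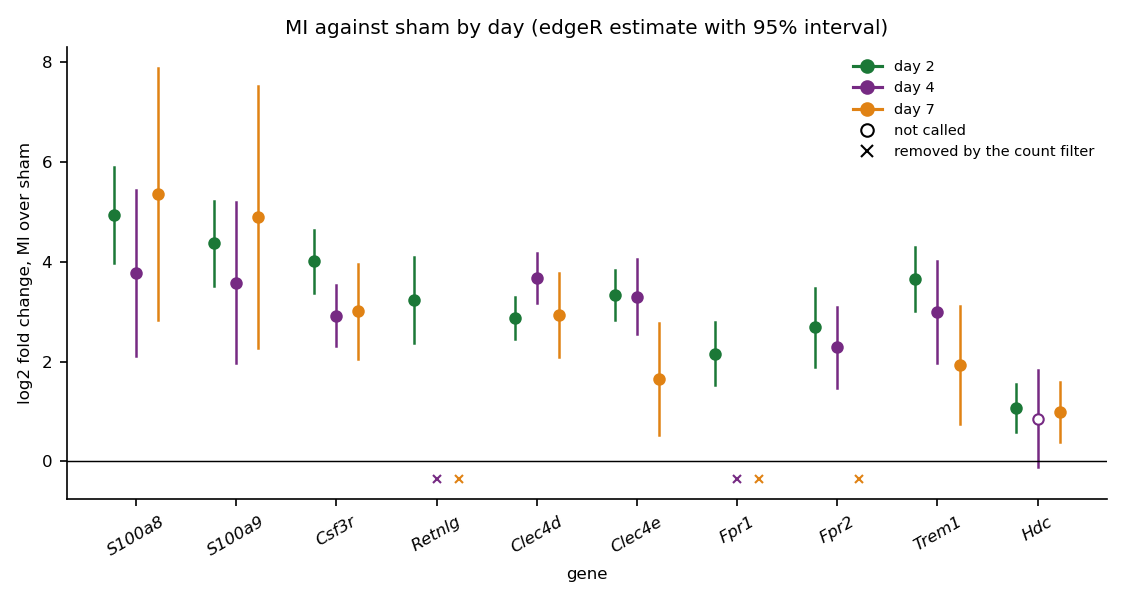
Log2 fold change of MI against sham for each gene at days 2, 4 and 7 (points) with an approximate 95% interval (bars). The intervals take normal quantiles of an SE derived from edgeR's F statistic, and are too narrow for groups of this size. An open point was not called and a cross marks a gene that did not pass the filter at that day. Intervals of S100a8 and S100a9 widen from day 2 to day 7, those of Clec4d stay narrow at days 2 and 4, and Hdc at day 4 crosses 0.

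Counting genes by separation of all 5 MI from all 5 sham hearts gave 9 of 10 at day 2 (all but Hdc), 7 of 10 at day 4 (all but Hdc, Retnlg and Fpr1) and 4 of 10 at day 7 (S100a8, Csf3r, Clec4d and Retnlg). Over the members tested only, the counts were 9 of 10, 7 of 8 and 3 of 7, since Retnlg was not tested at day 7. Among all genes tested, the lowest MI heart lay above the highest sham heart in 20.3% at day 2, 28.2% at day 4 and 29.3% at day 7.

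The MI hearts of a day differed from each other more in these genes than in most. After MI the coefficient of variation (CV) of S100a8 was 67.5% at day 2, 102% at day 4 and 118% at day 7, and that of S100a9 was 58.1%, 89.4% and 135%. For Csf3r it was 46.4%, 45.3% and 68.9%, for Clec4d 25.2%, 33.4% and 62.2%, for Clec4e 28.3%, 49.0% and 91.1% and for Hdc 36.8%, 52.2% and 35.6%. Over the members tested, the median CV after MI was 46.3%, 50.6% and 84.0% at days 2, 4 and 7, beside 12.8%, 13.2% and 16.5% over all genes tested. The same medians in sham hearts were 30.8%, 49.6% and 51.9%, beside 13%, 13.8% and 13.4%, with far fewer counts behind them. Each tested member's CV after MI exceeded that of at least 88.4% of the genes within 2-fold of its own level. Counting error alone would give S100a8 in MI hearts a CV of 2.99%, 6.61% and 5.79%. From the lowest to the highest MI heart, S100a8 ranged over 4.21-fold at day 2, 14.8-fold at day 4 and 36.7-fold at day 7, and S100a9 over 3.77-, 10.1- and 36.9-fold.

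A test of whether log2 values scatter more in MI than in sham hearts, fitted with limma over all genes, called 0 genes at each day after adjustment and so none of the 10. At an unadjusted p under 0.05 it held 9.91%, 7.9% and 8.75% of all genes at days 2, 4 and 7. Among the members these were Retnlg and Fpr1 at day 2, S100a8 and Csf3r at day 4, and S100a8, Csf3r and Clec4d at day 7, all with more scatter after MI. In sham hearts of day 2 the CV was 25.5% for Retnlg and 10.5% for Fpr1. Counting error alone would give 31.3% and 33.0%, so these sham values lay unusually close together. The mean deviation of S100a8 was larger after MI by 1.01 log2 units at day 4 (adjusted p 0.506) and by 1.31 at day 7 (adjusted p 0.453), and that of Clec4d at day 7 by 0.61 (adjusted p 0.386). In simulated data the test called only 1%, 3% and 1.5% of 200 genes given a larger spread at days 2, 4 and 7. The 0 calls thus carry little weight.

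The same hearts were high in gene after gene. At day 2, MI heart 1 was the highest in 9 of the 10 genes, all but Clec4d, and MI heart 2 the lowest in 7. At day 4, MI heart 4 was the highest in 9, again all but Clec4d, and MI heart 2 the lowest in 8. At day 7, MI heart 1 was the highest in 7 and MI heart 3 in the other 3 (Csf3r, Retnlg and Clec4d), and MI heart 5 was the lowest in 9. Summed over the 10 genes, MI hearts 1 to 5 held 670, 208, 349, 275 and 267 CPM at day 2, 201, 63.6, 95.9, 274 and 92.8 CPM at day 4, and 314, 71.3, 202, 44.6 and 32.6 CPM at day 7. Sham hearts held 17.9 to 25.3, 11.2 to 24.8 and 9.17 to 21.6 CPM. No MI heart fell into the sham range of its day, and MI heart 5 of day 7 came nearest.

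**Figure D4:**
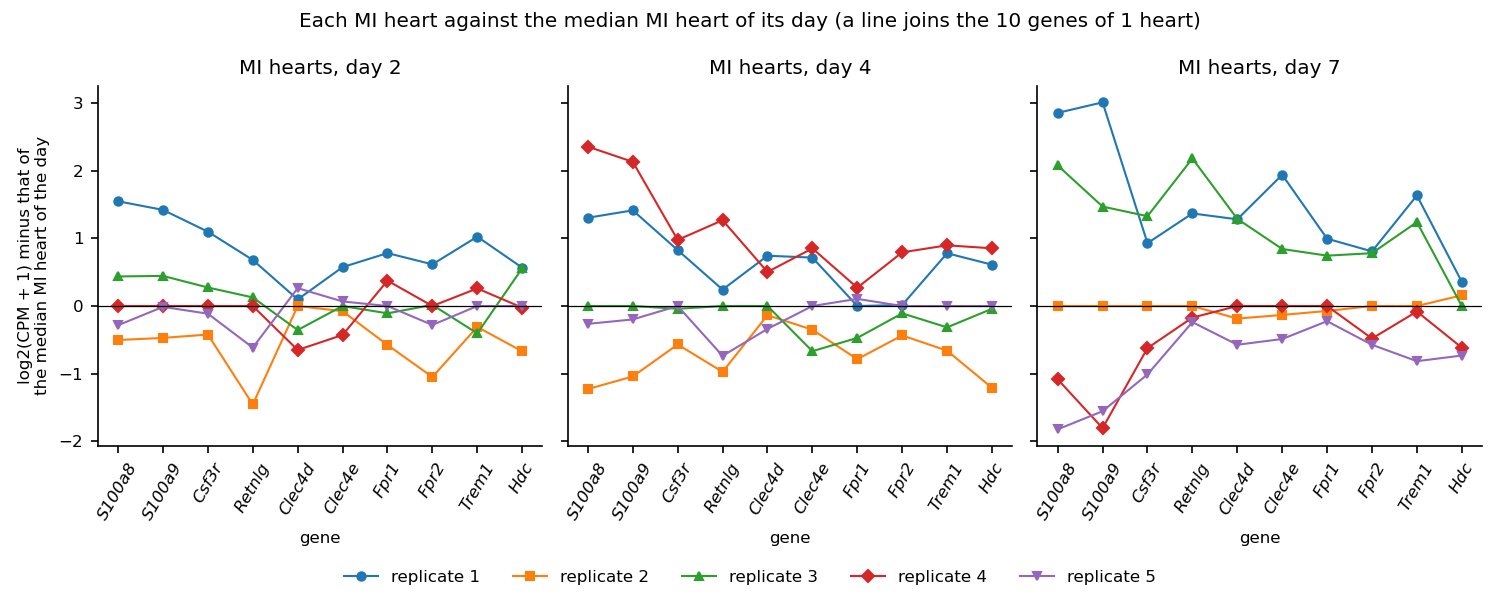
Each MI heart's log2(CPM + 1) for the 10 genes minus that of the median MI heart of its day; a line joins the genes of a heart and has no other meaning. MI heart 1 of day 2, hearts 4 and 1 of day 4 and hearts 1 and 3 of day 7 lie above the others, most for S100a8 and S100a9 and least for Hdc at day 7.

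As a description over the 15 MI hearts, with the mean of each day removed, log2(CPM + 1) of each gene was correlated with the mean of the other 9. Pearson's r was 0.988 for S100a8, 0.966 for Csf3r, 0.962 for S100a9, 0.946 for Trem1, 0.911 for Fpr2, 0.880 for Retnlg, 0.873 for Clec4e and 0.870 for Fpr1. Hdc (0.794) and Clec4d (0.783) followed the others least. The points share their libraries, and with them depth and RNA composition.

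Per kilobase of all annotated exons, a rough way to compare levels between genes that depends on the annotation, the calprotectin genes had the highest means in MI hearts at every day. This did not hold in each heart: in MI heart 5 of day 7, S100a8 was at 3.26 and Clec4d at 5.06 CPM per kb. In MI hearts of day 2, S100a9 was at 202 ± 117 and S100a8 at 150 ± 101 CPM per kb (SD, n = 5). Within hearts the S100a8 to S100a9 ratio per kb was 0.611 to 0.809, below 1 in all 5, as it was in 5 of 5 at day 4 and 4 of 5 at day 7. It depends on the summed exon lengths, 694 bases for S100a8 and 522 for S100a9. The ratio of counts in MI hearts of day 2 was 0.812 to 1.075. Csf3r (19.6 ± 9.07), Clec4d (15.1 ± 3.80) and Retnlg (14.6 ± 8.11) came next, and their ranges overlapped. Fpr2 (4.29), Trem1 (3.55), Fpr1 (2.78), Clec4e (2.60) and Hdc (1.27) were lowest. At day 4 the order after S100a9 (61.5 ± 55.0) and S100a8 (32.2 ± 32.9) was Clec4d (16.3 ± 5.44) and then Csf3r (8.80 ± 3.99) in CPM per kb. At day 7, Clec4d (11.9 ± 7.44) again followed S100a9 (68.4 ± 92.5) and S100a8 (42.8 ± 50.6) in CPM per kb.

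Whether the effect of MI differed between days was tested as the difference of log2 fold changes in a fit of all 30 libraries. None of the 10 genes was called in any of the 3 differences, where 4.8% (day 4 minus day 2), 1.02% (day 7 minus day 4) and 19.2% (day 7 minus day 2) of 15537 genes were called in either direction. At an unadjusted p under 0.05 there were 0, 1 and 2 members, against 20.4%, 14.1% and 32.8% of all genes. These were Clec4e, whose effect was smaller by 1.65 ± 0.72 (SE) on the log2 scale at day 7 than at day 4 (log2 -1.65, edgeR adjusted p 0.287) and by 1.68 than at day 2 (log2 -1.68, adjusted p 0.0828), and Trem1 (day 7 minus day 2 -1.70 ± 0.81, adjusted p 0.144). Leaving out MI heart 1 of day 7 gave both calls for day 7 minus day 2: Clec4e -2.37 (edgeR adjusted p 0.00418) and Trem1 -2.18 (adjusted p 0.0462). Clec4e in this difference was also called by DESeq2 (-1.71, adjusted p 0.0338) and by limma voom (-2.40, adjusted p 0.0114).

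From day 2 to day 4 the differences ran from -1.33 for Retnlg to 0.81 for Clec4d, the only positive one of 10. S100a8 had the highest from day 4 to day 7, at 1.61 ± 1.76 (SE; edgeR adjusted p 0.743), an error larger than the difference. Between MI hearts of day 7 and day 4 the log2 differences ran from -0.78 for Clec4e (edgeR adjusted p 0.205) to 0.53 for Retnlg (adjusted p 0.587), and 12.6% of all genes were called. Limma voom called Clec4d (-1.0, adjusted p 0.00775) and Clec4e (-1.38, adjusted p 0.0139) here, and leaving out MI heart 1 of day 7 called Clec4e (-1.45, edgeR adjusted p 0.0104). Between sham hearts of those days they ran from -1.19 for S100a8 (adjusted p 0.839) to 0.87 for Clec4e (adjusted p 0.628), with 0.122% of all genes called.

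Other genes listed as neutrophil markers rose with them in part. The counts of listed genes called higher, here and below, stand beside 24.1%, 27.5% and 28.4% of all genes tested at days 2, 4 and 7. Of 11 listed, 8 were tested at days 2 and 4 and 7 were higher at each: Cxcr2, Mmp8, Mmp9, Il1r2, Lcn2, Slfn4 and Mxd1. Mmp9, a gelatinase of neutrophil granules, was at 59.5 ± 23.0 CPM (SD, n = 5) in MI and 3.91 ± 1.2 in sham hearts at day 2 (14.1-fold, edgeR adjusted p 8e-07) and 8.13-fold higher at day 4, and at day 7 its 3.17-fold difference was not called (adjusted p 0.0683). Lcn2, which binds bacterial iron carriers, was 2.17-, 2.38- and 4.53-fold higher at days 2, 4 and 7. G0s2, an inhibitor of fat breakdown that heart cells and fat also express, went the other way, at 42.9 CPM against 86.4 at day 2 and lower at each day. At day 7, 3 of the 5 tested were higher (Slfn4, Mxd1 and Lcn2). Ly6g, the surface marker by which mouse neutrophils are commonly sorted, was at or near 0 throughout, at 0 to 0.514 CPM after MI and 0 in all sham hearts of days 4 and 7.

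Granule genes that neutrophils make while they mature in the bone marrow were mostly too low to test. Of 10 listed, 1 was tested at day 2 (Chil1, 3.59-fold higher, edgeR adjusted p 0.00136), 2 at day 4 (Prtn3, 3.07-fold higher, adjusted p 0.0194, and Chil1, not called) and 2 at day 7 with 0 called (Chil1, adjusted p 0.345, and Ltf, adjusted p 0.202). Their sum reached 81.3 CPM in sham heart 3 of day 4 and 81.8 CPM in MI heart 2 of day 7, both lung-transcript libraries, against 0.85 to 13.2 CPM in libraries other than those 6. At day 2 it was 3.82 to 12.7 CPM in MI and 0.85 to 2.81 CPM in sham hearts, without overlap. The sum was highest in MI heart 1 at day 2 and MI heart 4 at day 4, as most of the 10 genes were. At day 7 it was highest in MI heart 2, where none of the 10 genes was.

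Of the listed attractants and growth factors of neutrophils, only attractants and cytokines were tested. Higher were 5 of 7 at day 2 (Cxcl2, Cxcl3, Ccl3, Ccl4 and Il1b), 6 of 6 at day 4 and 2 of 4 at day 7 (Il1b and Cxcl5). Csf3, which encodes G-CSF, and Csf2 averaged 0.125 and 0.0427 CPM over the 30 libraries and were not tested at any day. Il1b, the cytokine that Trem1 and Clec4e signals raise, was 8.0-fold higher at day 2, 16.2-fold at day 4 and 11.6-fold at day 7 (edgeR adjusted p 2.75e-06, 0.000675 and 0.00611). Cxcl5, a ligand of Cxcr2, was 1.86-fold higher at day 2 (adjusted p 0.103, not called) and 3.28- and 3.31-fold at days 4 and 7. Cxcl1, another such ligand, was called only at day 4 (2.39-fold, adjusted p 7.64e-05), and at days 2 and 7 the folds were 1.28 and 1.19.

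Of the receptors and carriers of calprotectin, Tlr4, Cd14 and Myd88, which belong to its signalling path, were higher at each day. They were 3 of 7 tested at days 2 and 4 and 3 of 8 at day 7. Ly96, of the same path, was not called at any day (edgeR adjusted p 0.069, 0.105 and 0.281). Tlr4 was 1.84-, 1.98- and 1.64-fold higher. The more abundant Cd36, a fatty acid carrier of heart muscle and vessels, fell at days 4 and 7 (1.89- and 1.83-fold lower) as did Bsg (1.36- and 1.69-fold lower), and Emcn was not called. Of 12 signalling partners of the receptors, 9, 10 and 11 were higher at days 2, 4 and 7 and none lower. Gnai2, the G protein subunit through which formyl peptide receptors act, was 1.31-, 1.55- and 1.38-fold higher, and Syk, the kinase downstream of Clec4e and Trem1, 1.98-, 1.76- and 1.86-fold. Stat3, activated by Csf3r, was called only at day 7 (1.32-fold, edgeR adjusted p 0.00899).

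Listed relatives and ligands of the formyl peptide receptors were higher in 5 of 6 tested at day 2, 6 of 6 at day 4 and 5 of 5 at day 7. The genes tested were Anxa1 and the receptors Cmklr1, C5ar1, C3ar1, Ptafr and, at days 2 and 4, Ltb4r1. Fpr3, Fpr-rs3 and Fpr-rs4 averaged 0.0031, 0 and 0 CPM over the 30 libraries and were not tested. Anxa1, a ligand of Fpr2 that limits inflammation, was 1.69-, 2.49- and 3.30-fold higher, and C3ar1, a complement receptor, 2.2-, 4.35- and 3.38-fold. Cmklr1 was 1.16-fold higher at day 2 (edgeR adjusted p 0.373, not called) and 1.40- and 2.07-fold at days 4 and 7. On the histamine side, where Hdc makes the product, Hnmt, which methylates histamine, was 1.63-, 1.74- and 1.66-fold lower and the transporter Slc22a3 2.15-, 3.39- and 3.28-fold lower, while Slc18a2, which loads histamine into vesicles, was not called. These were 2 of 3, 2 of 4 and 2 of 3 tested, beside the shares of all genes called lower given above.

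Of 10 transcription factors listed for neutrophils, 7 were tested (Cebpa, Cebpb, Cebpd, Spi1, Irf8, Runx1 and Junb). Of these, 5, 6 and 5 were higher at days 2, 4 and 7. Cebpe, Gfi1 and Klf5 averaged 0.246, 0.0713 and 0.733 CPM over the 30 libraries and were not tested. Spi1, which encodes PU.1, is also a factor of macrophages and was 2.55-, 3.19- and 3.47-fold higher. Among the 3 most abundant, Cebpb was called only at day 4 (1.75-fold, edgeR adjusted p 0.000636), Junb only at day 4 (1.79-fold) and Cebpa at days 2 and 7 (1.46- and 1.72-fold).

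Markers of other blood cells moved with the 10 genes in part. All 8 monocyte markers were higher at each day, the 3 most abundant being Arg1 (10-, 7.39- and 3.84-fold), Vcan (1.65-, 2.23- and 4.11-fold) and Ccr2 (2.98-, 4.30- and 3.61-fold). Their summed CPM was 327 to 422, 291 to 588 and 174 to 480.2 in MI hearts of days 2, 4 and 7 and 56.4 to 105, 63.9 to 152 and 36.9 to 96.7 in sham hearts. Of 8 macrophage markers, 3 were higher at day 2 (Adgre1, Cd68 and Fcgr1) and all 8 at days 4 and 7. C1qb was 1.21-fold higher at day 2 (edgeR adjusted p 0.0717, not called), 2.56-fold at day 4 and 3.17-fold at day 7, C1qa 1.11-, 2.15- and 2.75-fold and Csf1r 1.12-, 1.81- and 2.31-fold. The macrophage sum was 389 to 602 CPM in MI hearts of day 2, 1051 to 1337 at day 4 and 768 to 1497 at day 7. In sham hearts of all days it was 280 to 601 CPM.

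Of 10 mast cell and basophil markers, 5 were tested and only Kit, which other progenitor cells carry too, was higher (3.61-, 2.48- and 2.15-fold), while Cma1, Tpsb2, Cpa3 and Mcpt4 were not called at any day. Erythroid and platelet markers were higher in 6 of 7 tested at day 2, 2 of 7 at day 4 (Ppbp and Pf4) and 6 of 7 at day 7. Of all genes tested, 24.1%, 27.5% and 28.4% were called higher at those days, so that 2 of 7 at day 4 is near the share of all genes. The erythroid and platelet sum was 1252, 401, 1076, 498 and 519 CPM in MI hearts 1 to 5 of day 2 and 158 to 337 CPM in the sham hearts. The heart with most of the 10 genes thus also held most of these markers. This was so at day 4 (MI heart 4, 2701 CPM) and day 7 (MI heart 1, 5743 CPM) too. The sum was 1186 to 2701 CPM after MI at day 4 and 1804 to 5743 CPM at day 7, against 740 to 3507 and 816 to 1607 CPM in sham hearts. Sham heart 1 of day 4 had the 3507 CPM while its 10 genes summed to 14.5 CPM. Over the 15 MI hearts with day means removed, r between a member and the sum of these markers was 0.643 to 0.816. For Clec4e it was 0.789, beside 0.773 with the other neutrophil markers. Over the members r was 0.710 to 0.961 with the other neutrophil markers and -0.0425 to 0.665 with the granule genes. With the monocyte markers r was 0.457 to 0.711, with the macrophage markers 0.152 to 0.653 and with the mast cell markers 0.164 to 0.381. With the cardiomyocyte markers r was -0.717 to -0.377. The part of blood left in the tissue, or of other white cells, in the results for the 10 genes was not tested.

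**Figure D5:**
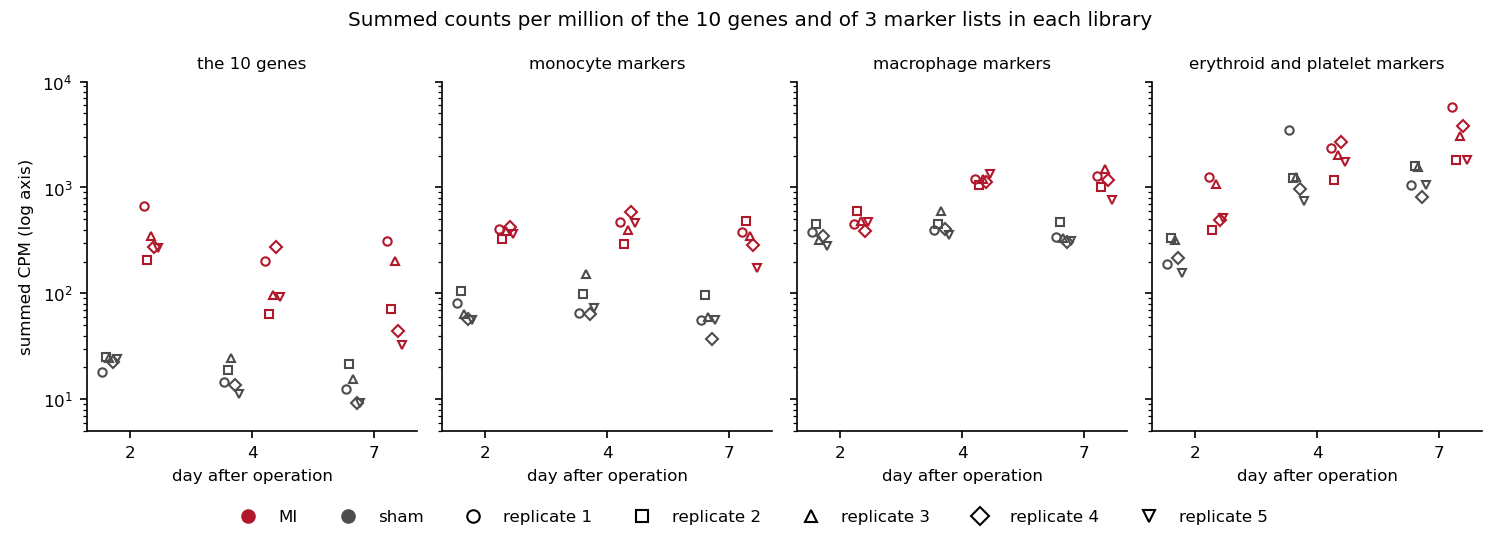
Summed CPM (log axis) of the 10 genes, 8 monocyte, 8 macrophage and 8 erythroid and platelet markers in each library, by day and operation, with replicates shown by marker shape. MI hearts of a day lie closer together for monocyte and macrophage markers than for the 10 genes, though monocyte sums run from 174 to 480 CPM at day 7. Erythroid and platelet markers are also spread widely, from 401 to 1252 CPM at day 2, where the 10 genes run from 208 to 670 CPM.

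Among 14773 genes that averaged 1 CPM or more in MI hearts, Cxcr2, the receptor for the CXCL attractants of neutrophils, had the pattern most like the average of the 10 genes over the 15 MI hearts with day means removed (r = 0.982). It held 65.6, 19.5, 34.7, 36.7 and 32.9 CPM in MI hearts of day 2, 13.2, 3.38, 7.62, 24.4 and 6.07 CPM at day 4 and 16.4, 4.46, 10.6, 1.18 and 1.08 CPM at day 7. The high hearts were those of S100a8 at each day. Next came Il1r2 (0.955), a decoy receptor for IL-1, Cd14 (0.947), Hcar2 (0.945), Cyp4f18 (0.940), Il1b (0.937), Aqp9 (0.934), Clasrp (0.933), Cd101 (0.931) and Asprv1 (0.930). Over all 30 libraries, without removing means, Cxcr2 (0.980), Srgn (0.979), Ccr1 (0.974), Gad1-ps (0.971) and Il18rap (0.967) were most alike. These are ranks of likeness across libraries that share depth and composition.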

How the data were processed

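RNA was prepared from mouse hearts with a column kit and made into strand-marking libraries from purified mRNA, read as pairs of 150 bases (the labels' protocols). The files as deposited hold raw whole-number read counts per gene; per the submitters' processing notes they came from bcl2fastq 2.20.0 and featureCounts on GRCm38. The aligner, and the version and strand setting of featureCounts, are not named in the sources. Library totals and the CPM worth of 3 counts stand in the report; the floor covers counting error only.

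Symbols, positions and summed exon lengths came from GENCODE M21 (97.3% of identifiers, 99.9% of counts named), promoters from RefSeq. Each day's 10 libraries were fitted in edgeR 4.0.16 (TMM, filterByExpr with a minimum count of 10 and total of 15, robust quasi-likelihood test, Benjamini-Hochberg over all genes tested). Differences between days used 1 fit of all 30 libraries. Spread was tested with limma 3.58.1 on absolute deviations of log2 CPM (prior count 2) from the group mean. R 4.3.3, Python 3.11.15 and matplotlib 3.10.9 were used. In data simulated from these libraries, 89%, 89% and 81% of genes changed 2-fold were called at days 2, 4 and 7.

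The 10 genes and all gene lists were chosen with earlier results of these data known. A listed gene that is not reported here was left out of the lists. Of each list the 3 genes of highest mean CPM are named, with any gene in a count of 5 or fewer. Spi1, Ly96, the genes named as too low to test and the longer name lists go beyond that and were chosen after their values were seen. The genes most alike are the 10 (within days) and 5 (over 30 libraries) of highest r. Alternatives were median-ratio size factors, limma voom with sample weights, DESeq2 1.42.0, filtering on a mean of 1 CPM or not at all, the replicate number as a block, all 30 libraries in 1 fit, each library left out, and the 6 lung-transcript libraries (Sftpc and Scgb1a1 at 50 CPM or more in sum) left out; for spread, deviations from the median and a prior count of 0.5.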

Additional observations from a re-analysis of the deposited data

Results flagged for a closer look

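Among the 60 groups of 5 libraries (10 genes in 6 groups), 2 had 1 library far from the other 4 by Dixon's test for 5 values (critical value 0.71), and chance flags about 1 in 20 groups. S100a9 in sham hearts of day 7 was at 3.25 CPM in heart 2, a library with lung transcripts, against 0.128 to 0.88 CPM in the other 4. Fpr2 in MI hearts of day 4 was at 5.10 CPM in heart 4, the heart highest in 9 of the 10 genes, against 1.60 to 2.55 CPM in the other 4.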

How the results depend on the processing

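For MI against sham, leaving out 1 library kept direction and call in 243 of 250 fits of single members, with 2 calls gained and 5 lost, and the other settings did so in 182 of 190, with 1 gained and 7 lost; no direction turned, and the changed calls stand in the report. Leaving out 1 library, the members called numbered 10 to 10 at day 2, 7 to 10 at day 4 and 6 to 8 at day 7, and 10, 7 to 10 and 6 to 10 over all settings. For day 7 minus day 2 the count was 0, but 1 with DESeq2, 1 with limma voom and 0 to 2 leaving out 1 library; for MI day 7 against day 4 it was 0, but 2 with limma voom and 0 to 1 leaving out 1 library; for spread at day 7 it was 0, but 2 without lung-transcript libraries, where the 2 remaining sham libraries deviate equally from their mean by construction, so that this test is void. Signs that turned: S100a9 for day 7 minus day 2 (0.54) was -0.88 with limma voom and -0.69 to 1.56 leaving out 1 library, negative without MI heart 1 of day 7; Retnlg for MI day 7 against day 4 (0.53) was -0.23 with limma voom and -0.29 to 1.21 leaving out 1 library, negative without MI heart 3 of day 7. The causes were not tested. With the replicate block the counts were 10, 7 and 7 and 0 elsewhere. Same-numbered libraries correlated at -0.22 to 0.235 and were best matched to their own number in 2, 1 and 1 of 5 pairs. These values show no pairing by number but cannot exclude one. At 3 counts for 0.213 to 0.383 CPM, sham levels of Fpr1, Fpr2, Retnlg and Trem1 rest on few counts.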

Other observations

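Clasrp, a splicing-related gene, stood eighth among the genes most like the 10 across MI hearts (r = 0.933 with day means removed) although edgeR's test did not call it between MI and sham hearts at day 2 or day 4 (log2 fold change 0.01 and 0.10, adjusted p 0.977 and 0.507; at day 7 0.49, adjusted p 0.0231). In MI hearts 1 to 5 of day 7 it was at 21.4, 17.3, 23.2, 13.5 and 14.3 CPM, highest in hearts 1 and 3, as S100a8 was. It was picked out after the values were seen, from 14773 genes.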
